A study of Mus musculus with 4 samples.

Results

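Pitx1, Pitx3, Tbx2, Tbx3, Tbx4, Tbx5, Tbx15, Tbx18 and Lbx1 encode transcription factors that act in limb position, limb patterning and limb muscle. They were taken by symbol from the GENCODE M21 annotation of the mouse genome (mm10), and all 9 were found, among 21755 protein-coding genes of the annotation, autosomal or X-linked. Together they have 23 of the 93196 transcription start sites (TSSs) of those genes. For each gene, peaks were taken over its body and up to 1000 bp from each of its TSSs, which gave 29 of the 41955 peaks of the replicated list.

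H3K4me3, trimethylation of histone H3 at promoters, was mapped with chromatin immunoprecipitation sequencing (ChIP-seq) in gastrocnemius, the large calf muscle of the hindlimb. All 4 libraries were made from 2-month-old adult females of B6CASTF1/J, the hybrid between C57BL/6J and CAST/EiJ, with no transgene or treatment named in the labels. They formed 2 pools, E and F, each of 2 biosamples and with 2 technical libraries, and the deposited files hold 1 peak list per pool, a replicated list of both pools and a pooled list of both. No forelimb muscle, other tissue or other condition was measured, so the values below are descriptions without a test, and the spread between the 2 pools is the only measure of error.

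H3K4me3 is laid down where transcription begins, most of all at promoters rich in CpG dinucleotides, and genes that hold their cell's identity often carry it over unusually long domains. In the embryo, Pitx1 is expressed in the hindlimb and acts upstream of Tbx4, whereas Tbx5 starts the forelimb. Tbx2, Tbx3, Tbx15 and Tbx18 are expressed in both pairs of limbs, Lbx1 marks the muscle precursors that migrate into them, and Pitx3 is switched on as muscle cells differentiate. Tbx2 and Tbx4 lie side by side on chromosome 11, and Tbx3 and Tbx5 on chromosome 5, each pair derived from an ancient tandem duplication.

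All 9 genes carried a peak within 1000 bp of a TSS, here called marked, in each of the replicated, pool E, pool F and pooled lists. The same rule called 69.3% of all protein-coding genes in the replicated list, 69.3% in pool E, 68.9% in pool F and 69.5% in the pooled list. In bulk muscle, a mark in fewer cells and less mark per cell cannot be told apart, and the 2 parental alleles were not separated.

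The genes differed in the height of the mark. Height is given as the authors' signal value of a peak, whose reference is not stated, so it is ranked only within a list. The highest value within 1000 bp of a TSS was 55.5 for Tbx15 in the replicated list, 54.2 for Pitx3 and 49.2 for Lbx1. A middle group followed, with 40.2 for Tbx18, 39.6 for Tbx2 and 39.1 for Tbx3. The lowest were the genes specific to one pair of limbs: 24.5 for Pitx1, 22.2 for Tbx5 and 19.5 for Tbx4. In each pool the last group stayed apart from the other 6, at most 25.2 against at least 37.4 in pool E and at most 27.0 against at least 37.6 in pool F. Within the groups the order was less firm: Tbx18 was below Tbx2 in pool E (37.4 and 43.4) and above it in pool F (39.8 and 37.6), and Pitx1 and Tbx5 also changed places.

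**Figure D1:**
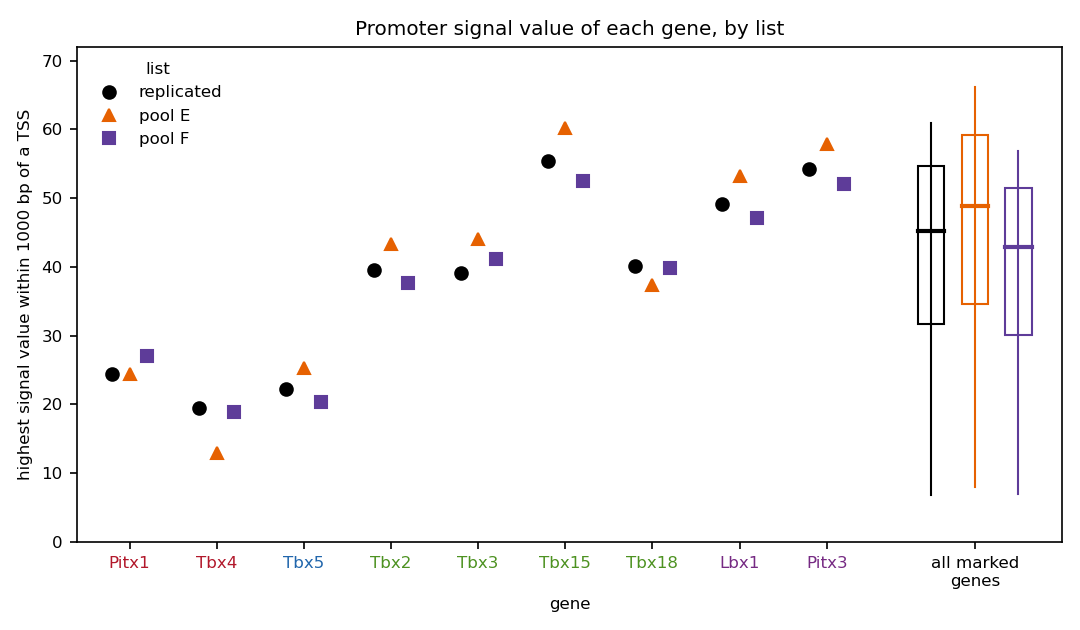
Highest signal value within 1000 bp of a TSS for each gene (y axis, authors' units) in the replicated list (circles), pool E (triangles) and pool F (squares), with all marked protein-coding genes at the right (line at the median, box from the lower to the upper quartile, whiskers from the 5th to the 95th percentile). Pitx1, Tbx4 and Tbx5 sit at or below 27.0 in all 3 lists, the other 6 genes at or above 37.4.

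Set beside all marked genes, the median of the 9 was lower in height, and higher in width when nearby peaks were joined. The median signal value was 39.6 against 45.2 over all 15067 marked genes in the replicated list, 43.4 against 48.9 in pool E and 39.8 against 42.9 in pool F. Tbx15, Pitx3 and Lbx1 were the 3 of 9 above the median of all marked genes. Width was measured as a domain, the widest run of peaks at most 1000 bp apart that reached within 1000 bp of a TSS. The median domain of the 9 genes spanned 6364 bp in the replicated list, against 2400 bp for all marked genes. The pools gave the same picture, with 6365 against 2452 bp for E and 6296 against 2314 bp for F. Without joining, the replicated medians were 2576 against 2281 bp, and 6 of the 9 genes were above the latter. With joining, Tbx5 was the 1 gene whose domain was narrower than the median of all marked genes.

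Domains of at least 5000 bp, reached by 8.56% of protein-coding genes, were found at 5 of the 9: Tbx2 (15807 bp), Lbx1 (9512 bp), Tbx3 (8170 bp), Tbx15 (6700 bp) and Pitx1 (6364 bp). Those of Tbx3, Tbx15 and Lbx1 were single peaks, a width that 5.30% of protein-coding genes reached without joining. Those of Tbx2 and Pitx1 needed joining: their widest single peaks at a TSS were 3973 and 2074 bp. At least 50% of the gene body lay under peaks at Lbx1 (100%), Tbx2 (98.7%), Tbx3 (62.6%) and Pitx1 (52.2%), 4 of 9 genes where 6.22% of all protein-coding genes did so. These 4 genes span 3129 to 14056 bp. The share was 32.6% at Pitx3, 11.1% at Tbx15, 10.4% at Tbx4, 7.47% at Tbx18 and 2.14% at Tbx5, with a median of 4.03% over all protein-coding genes.

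**Figure D2:**
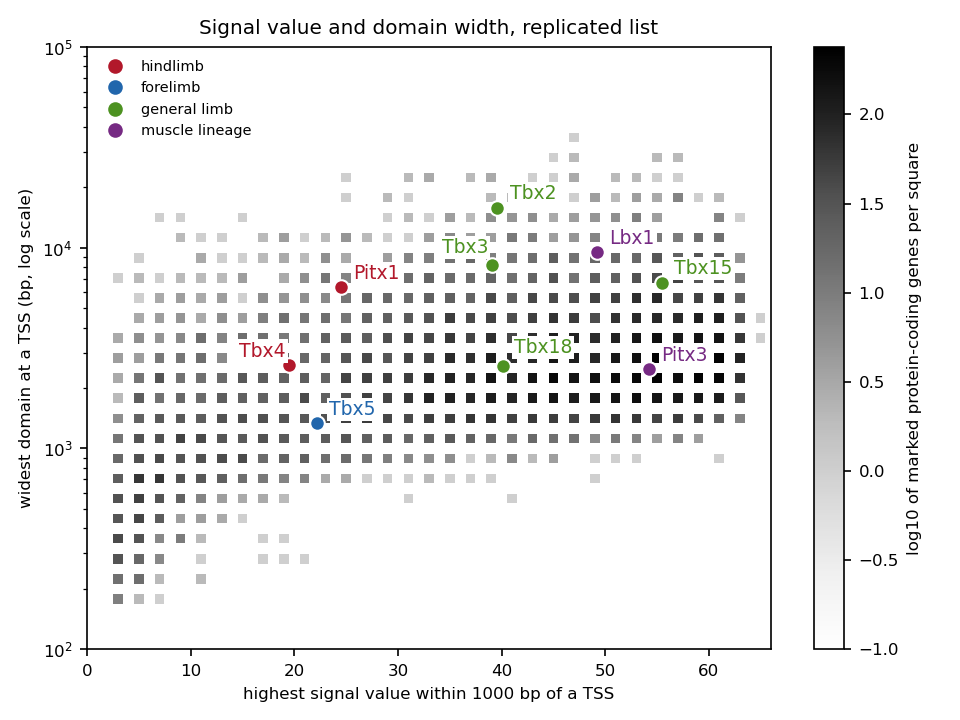
Signal value (x axis) against domain width in bp (y axis, log scale) in the replicated list, with the 9 genes coloured by role and the number of marked protein-coding genes per grid square in grey (log10 scale). Pitx1 lies left and high, with a domain of 6364 bp at a signal value of 24.5, and Pitx3 right and low, with 2476 bp at 54.2.

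Pitx1, the paired-type homeobox gene of hindlimb identity, had its strongest peak over an internal start and a weak one at its annotated 5′ end. It spans chr13:55825051-55836192 on the minus strand (11142 bp) and has 2 TSSs. TSS 1, the farthest upstream, had a peak of 410 bp beginning 34 bp downstream of it, with signal values of 4.12 in the replicated list, 4.50 in pool E and 3.80 in pool F. TSS 2, 4767 bp downstream, lay under a peak of 2074 bp (chr13:55829728-55831801) with 24.5, 24.4 and 27.0 in the same order. The internal start thus had the stronger peak in all 3 lists, and RefSeq also places starts of Pitx1 under that peak. Beyond it, still over coding exons, came peaks of 1952 bp (17.1, 19.2 and 15.4) and 1377 bp (6.12 in the replicated list), the latter also within 1000 bp of a TSS of the predicted gene Gm47071. The 3 peaks joined into the domain of 6364 bp, wider than 93.1% of marked genes, while the signal value exceeded that of 17.4%. The weak peak at TSS 1 was also within 1000 bp of a TSS of Gm28760, and the assay has no strand, so these genes cannot be told apart there.

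Tbx4, the T-box gene of hindlimb outgrowth, had the lowest signal value of the 9 in every list, from separate peaks of modest height. It spans chr11:85886422-85916097 on the plus strand (29676 bp) and has 3 TSSs. TSS 1 lay under a peak of 1103 bp with 12.1 in the replicated list, 12.3 in pool E and 12.5 in pool F. TSS 2 had no peak within 1000 bp in any list, the nearest being 3047 bp away in the replicated list. TSS 3 fell in a gap: a peak of 1977 bp ended 77 bp before it, with 19.5, 12.9 and 18.9, and another of 515 bp began 40 bp after it, with 6.78, 6.85 and 7.05. The pools were closest at TSS 1 and at the small peak, and at the larger one pool F stood above pool E. In pool F the larger peak was split in 2, so that its part with 18.9 ended 715 bp from TSS 3. The domain there spanned 2608 bp, near the middle of all marked genes (wider than 56.5%), and 10.4% of the gene body was under peaks.

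The 250 bases before TSS 3 of Tbx4 are shown because the gap in the mark falls within this promoter: 174 of them are under the replicated peaks. They are the plus strand of chr11:85896515-85896764 from the RefSeq promoter table (GRCm38.p6), 5′ to 3′, with CpG dinucleotides in capitals. They hold 6 CpGs, a median number: 49.4% of the 32619 promoters of the table hold fewer, and the upper quartile is 16.
Tbx4 promoter: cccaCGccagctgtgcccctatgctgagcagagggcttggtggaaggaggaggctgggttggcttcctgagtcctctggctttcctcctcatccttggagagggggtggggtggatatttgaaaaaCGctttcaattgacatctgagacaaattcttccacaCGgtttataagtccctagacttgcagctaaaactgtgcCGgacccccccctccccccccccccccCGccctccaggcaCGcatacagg

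A peak of 1712 bp (chr11:85925071-85926782) lay 8974 bp past the 3′ end of Tbx4, more than 1000 bp from any TSS of GENCODE or RefSeq. Its signal value was 18.4 in the replicated list, 23.3 in pool E and 17.6 in pool F, where the highest peak at the gene itself had 19.5, 12.9 and 18.9. It was thus above the peaks of the gene in pool E and a little below the highest of them in pool F. The 121 bases around its summit, plus strand of chr11:85925423-85925543 (mm10 sequence from RefSeq), are shown because this peak has no annotated start near it, and they hold 3 CpGs, again in capitals.
Tbx4 downstream summit: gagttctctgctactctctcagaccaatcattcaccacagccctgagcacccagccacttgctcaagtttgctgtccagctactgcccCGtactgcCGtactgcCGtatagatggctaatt

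Tbx5, the T-box gene that starts the forelimb and that also acts in the heart, was the 1 gene of the 9 with no peak over any GENCODE TSS in any list. A peak over a TSS was found at the other 8, and at 67.0% of all protein-coding genes. Of the marked genes, 3.20% were like Tbx5 in having a peak near a TSS and none over one. The gene spans chr5:119832668-119885219 on the plus strand (52552 bp) and has 3 TSSs. The peak nearest to TSS 1 (1332 bp, chr5:119830937-119832268) ended 400 bp upstream of it in the replicated list and in pool F and 449 bp upstream in pool E, with signal values of 22.2, 20.4 and 25.2. It lay within 1000 bp of a TSS of the lincRNA gene Gm43050, so this peak cannot be given to Tbx5 alone. The RefSeq annotation places further Tbx5 starts 36154, 36021 and 492 bp upstream of TSS 1. The last of these is under the same peak, and the others lie 34423 and 34290 bp from it. Whether a TSS of Tbx5 is under a peak therefore turned on the annotation.

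Downstream of TSS 1 the mark on Tbx5 was weak. TSS 2 and TSS 3 lay 249 and 663 bp from a peak of 581 bp with a signal value of 3.08, which was found in the replicated and pooled lists and in neither pool's own list. An intron peak of 543 bp, 30419 bp from the nearest TSS, had 5.93 in the replicated list, 6.71 in pool E and 4.49 in pool F. Peaks covered 2.14% of the gene body in the replicated list, 1.17% in pool E and 1.00% in pool F, the lowest share of the 9 genes.

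Tbx5 was also the only member of the low CpG class, defined by a CpG ratio (observed over expected) under 0.48 in 1000-bp windows at all TSSs. Its signal value exceeded that of 15.8% of all marked genes and of 56.3% of the marked genes of that class. Pitx1 and Tbx4 belonged to the intermediate class, where their values exceeded those of 16.4% and 12.5% of marked genes. The low rank of Tbx5 was thus not seen within its own class, and those of Pitx1 and Tbx4 were. The class of Tbx5 was set at its GENCODE TSSs, however, and the peak that gave its value covered none of them. Whether the sequence under that peak is of the same class was not tested. The summit of the upstream peak of Tbx5, the only strong one of the gene, is at position 119831500, and the 121 bases around it (plus strand of chr5:119831440-119831560) hold 4 CpGs in a sequence of 66.9% GC.
Tbx5 upstream summit: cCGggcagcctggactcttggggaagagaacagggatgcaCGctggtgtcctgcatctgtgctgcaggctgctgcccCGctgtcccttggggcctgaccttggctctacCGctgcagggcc

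**Figure D3:**
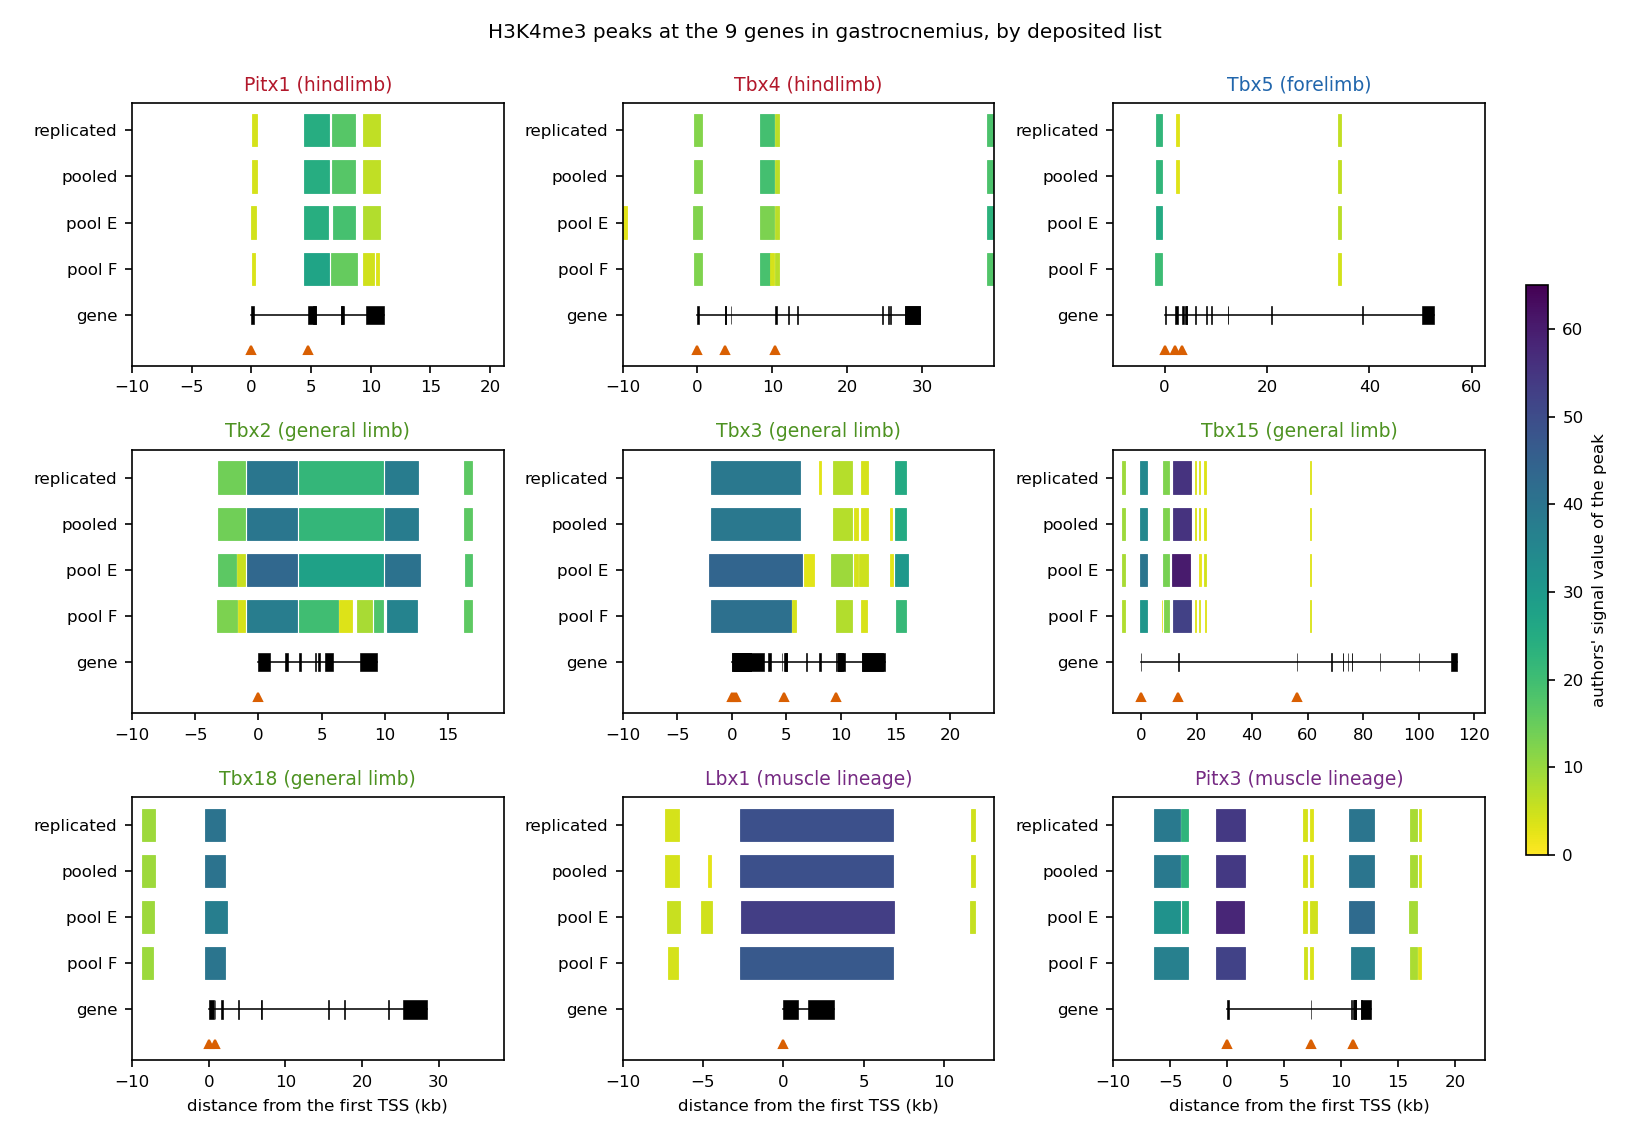
Peaks in the 4 lists at each gene (x axis, distance from TSS 1 in kb in the direction of transcription, coloured by the authors' signal value), with exons in black and TSSs as triangles. Peaks fill Tbx2 and Lbx1, leave most of Tbx5, Tbx15 and Tbx18 free, and cover none of the triangles at Tbx5.

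Tbx2, a T-box repressor expressed along both limb buds, was covered by the mark from end to end. It spans chr11:85832551-85841948 on the plus strand (9398 bp) and has 1 TSS. A peak of 3973 bp over the TSS had signal values of 39.6 in the replicated list, 43.4 in pool E and 37.6 in pool F. It continued, after a gap, into a body peak of 6661 bp with 22.0, 27.8 and 20.0, which pool F held as 4 separate peaks. Both pools kept the same shape, with 98.6% of the body covered in pool E and 92.4% in pool F. Together with a peak on either side these formed a domain of 15807 bp made of 4 peaks, wider than 99.6% of marked genes. The TSS peak and the peak upstream of it both lay within 1000 bp of a TSS of 2610027K06Rik, an upstream neighbour. The full width of the domain therefore cannot be given to Tbx2 alone.

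The last peak of the Tbx2 domain, 2588 bp long, lay past the gene's 3′ end (chr11:85842560-85845147). Its signal value of 38.0 was nearly that of the TSS peak, although no TSS of either annotation was within 1000 bp. The 121 bases around its summit (plus strand of chr11:85844465-85844585) hold 10 CpGs, and those at the downstream peak of Tbx4 hold 3 CpGs. These peaks lie 612 bp past Tbx2 and 8974 bp past Tbx4. Whether they are matching positions of the paralogs was not tested.
Tbx2 downstream summit: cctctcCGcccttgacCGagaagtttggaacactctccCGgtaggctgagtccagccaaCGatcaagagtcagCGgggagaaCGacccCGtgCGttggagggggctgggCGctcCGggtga

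Tbx3, the close relative of Tbx2 with a role in posterior digits, had the mark over all 5 of its TSSs. It spans chr5:119670669-119684724 on the plus strand (14056 bp). A single peak of 8170 bp (chr5:119668753-119676922) covered TSS 1 to TSS 4, with 39.1 in the replicated list, 44.1 in pool E and 41.2 in pool F, and also lay within 1000 bp of a TSS of the antisense gene Tbx3os1. TSS 5, where a processed transcript begins, lay under a weaker peak with 7.31, 9.63 and 7.51. The strong mark thus belonged to the 5′ part of the gene. The pool E domain was the wider, 9639 bp long, and that of pool F was 7800 bp. Past the 3′ end, a peak of 1015 bp with 25.5 lay more than 1000 bp from any annotated TSS, as at Tbx2.

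Tbx15, which shapes the limb skeleton and is known in fast muscle fibres, had the highest signal value of the 9. It spans chr3:99240381-99354259 on the plus strand (113879 bp) and has 3 TSSs. TSS 1 lay under a peak of 2313 bp with 34.7 in the replicated list, 39.7 in pool E and 30.8 in pool F. TSS 2, 13379 bp downstream, lay under a peak of 6700 bp (chr3:99251822-99258521) with 55.5, 60.3 and 52.4, higher than 77.5% of marked genes. The second start had the higher and wider peak in both pools. TSS 3, far inside the gene, had no peak within 1000 bp in any list.

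Between TSS 1 and TSS 2 of Tbx15 an intron peak of 2185 bp had 12.6 in the replicated list, 13.3 in pool E and 12.7 in pool F. Another 4 intron peaks were weak, at 3.31 to 3.65. The 121 bases around the summit of the first (plus strand of chr3:99249149-99249269) hold 2 CpGs and 47.1% GC, and are shown as the strongest peak inside a member that is more than 1000 bp from that gene's TSSs and outside its exons.
Tbx15 intron summit: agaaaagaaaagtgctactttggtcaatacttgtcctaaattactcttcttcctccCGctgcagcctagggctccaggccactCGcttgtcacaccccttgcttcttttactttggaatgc

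Tbx18, expressed in limb mesenchyme and later in mural cells of vessels, had a single peak. It spans chr9:87702800-87731260 on the minus strand (28461 bp), and its 2 TSSs lay under the same peak of 2576 bp (chr9:87729135-87731710). The signal value was 40.2 in the replicated list, 37.4 in pool E and 39.8 in pool F, and the domain was wider than 55.6% of marked genes. The rest of the gene was free of peaks in all lists. D030062O11Rik, a transcript on the opposite strand, has a TSS within 1000 bp of the same peak. The 250 bases before TSS 1 (minus strand of chr9:87731261-87731510) lie wholly under it and hold 15 CpGs, more than 72.5% of promoters in the table.
Tbx18 promoter: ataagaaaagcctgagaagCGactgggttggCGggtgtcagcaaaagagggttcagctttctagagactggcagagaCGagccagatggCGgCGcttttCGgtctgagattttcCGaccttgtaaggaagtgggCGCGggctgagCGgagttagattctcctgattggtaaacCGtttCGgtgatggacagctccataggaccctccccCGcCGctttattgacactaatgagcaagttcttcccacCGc

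**Figure D4:**
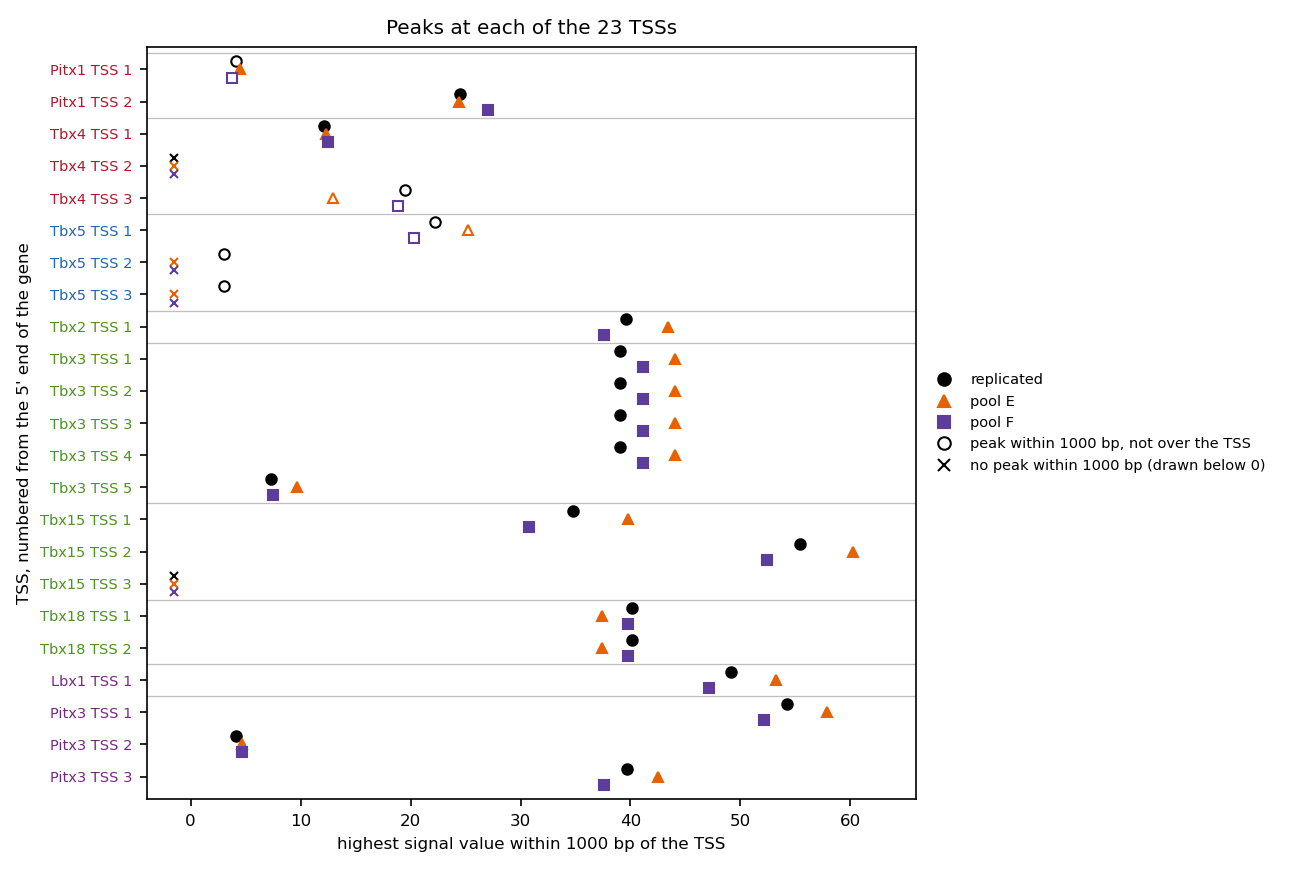
Highest signal value within 1000 bp of each of the 23 TSSs (x axis), numbered from the 5′ end of each gene, in the replicated list (circles), pool E (triangles) and pool F (squares), filled where a peak covers the TSS, open where it only lies within 1000 bp, and crosses where there is none. TSS 1 is the weaker start at Pitx1 (4.12 against 24.5) and Tbx15 (34.7 against 55.5), and no symbol of Tbx5 is filled.

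Over the 23 TSSs, 16 lay under a replicated peak, where 54.9% of all TSSs of protein-coding genes did. The count was 17 in pool E, where the weak peak reached TSS 1 of Pitx1, and 16 in pool F. Within 1000 bp of a replicated peak were 21, and the other 2 were TSS 2 of Tbx4 and TSS 3 of Tbx15.

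Lbx1, the homeobox gene of muscle precursors that migrate into the limb, lay wholly under 1 peak. It spans chr19:45232684-45235812 on the minus strand (3129 bp) and has 1 TSS. The peak of 9512 bp (chr19:45228972-45238483) had signal values of 49.2 in the replicated list, 53.2 in pool E and 47.2 in pool F. Both pools held it as a single peak, 9532 bp long in pool E and 9464 bp long in pool F. It reached 2671 bp upstream of the TSS and was wider than 97.7% of the domains of marked genes. RefSeq starts the gene 1029 bp farther upstream, still under the peak.

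Pitx3, the paralog of Pitx1 known for lens and dopamine neurons as well as muscle, had strong peaks at both ends of the gene. It spans chr19:46135685-46148326 on the minus strand (12642 bp) and has 3 TSSs. TSS 1 lay under a peak of 2476 bp (chr19:46146799-46149274) with 54.2 in the replicated list, 57.9 in pool E and 52.1 in pool F, higher than 73.2% of marked genes. TSS 2 lay under a peak of 313 bp with 3.33, 4.72 and 3.78. TSS 3, where a transcript with a retained intron begins near the 3′ end, lay under a peak of 2156 bp with 39.7, 42.5 and 37.6. The 5′ end was the stronger, in contrast to Pitx1, whose annotated 5′ end was the weaker.

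The 250 bases before TSS 1 of Pitx3 (minus strand of chr19:46148326-46148575) are shown as the CpG-rich counterpart to the Tbx4 promoter: they lie wholly under the peak and hold 16 CpGs, at 68.8% GC against 58.4% for Tbx4.
Pitx3 promoter: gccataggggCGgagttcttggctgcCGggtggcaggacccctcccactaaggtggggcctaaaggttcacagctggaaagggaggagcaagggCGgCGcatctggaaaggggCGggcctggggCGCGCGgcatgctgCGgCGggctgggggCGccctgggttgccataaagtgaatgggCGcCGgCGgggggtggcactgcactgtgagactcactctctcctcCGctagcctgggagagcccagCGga

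The RefSeq promoter table held these 3 of the 9 genes, and 5 short motifs were searched on both strands of the 250 bases. The GC box GGGCGG was found at Pitx3, from 243, 159 and 140 bases before the start, and at Tbx4, and in 33.0% of all promoters of the table. The TATA motif TATAAA was found at Tbx4 on the reverse strand, from 85 bases before the start, and in 12.4% of all promoters, and CCAAT at Tbx18 and in 34.0%. The bicoid-type motif TAATCC, which Pitx proteins bind, and the T-box core GGTGTG were found in none of the 3, and in 6.22% and 16.4% of all promoters. A match is a description of the sequence, not a bound site.

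CpG content and the mark ran together over the whole annotation: 99.3% of genes of the high CpG class were marked, 93.9% of the intermediate class and 25.2% of the low class, with median signal values of 51.5, 43.6 and 18.5. Tbx2, Tbx3, Tbx15, Tbx18 and Lbx1 were in the high class, and Pitx1, Tbx4 and Pitx3 in the intermediate. Within the high class, the signal values of Tbx2, Tbx3 and Tbx18 exceeded those of 21.8%, 20.5% and 23.1% of marked genes, those of Lbx1 and Tbx15 43.5% and 65.9%. Pitx3 exceeded 79.6% of the intermediate class. The domains of Tbx2, Lbx1, Tbx3, Pitx1 and Tbx15 remained wide for their class, above 99.6%, 97.9%, 96.4%, 94.0% and 93.6% of it.

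CpG-rich sequence around the 9 genes was mostly under the mark. Islands, here windows of 500 bp of at least 55% GC whose CpG ratio reached 0.65, filled 41503 bp of the genes with 10 kb on either side, and 87.0% of these bases lay under replicated peaks, against 73.8% over the genome. These sets are unlike: the genome figure takes in all islands, also those of unmarked genes, and the 10 kb flanks take in neighbours. The share of island bases under peaks was 100% at Tbx15 and 97.4% at Pitx3, where the flank includes peaks near a TSS of Gbf1. It was lowest at Tbx4 (53.9%), Tbx5 (56.8%) and Pitx1 (76.1%), the 3 genes with the lowest signal values. In turn, 45.9% of peak bases at the genes were in islands, and 29.8% over the genome. It was lowest at Tbx4 (18.7%) and Tbx15 (24.1%), and highest at Tbx18 (73.7%), Pitx1 (70.3%) and Tbx5 (65.3%). Tbx5 was thus high here, although its class, set at its TSSs, was low.

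Peaks over the gene body more than 1000 bp from the gene's own TSSs were found at Pitx1, Tbx2, Tbx3, Tbx5 and Tbx15, 5 of 9 genes where 27.7% of protein-coding genes had one. Their highest signal values were 22.0 at Tbx2, 17.1 at Pitx1, 12.6 at Tbx15, 5.93 at Tbx5 and 4.22 at Tbx3. Of the 29 replicated peaks of the 9 genes, 14 had a signal value under 10. Low values were as common over the whole replicated list, where 49.0% of peaks were below 7.31 and 59.1% below 12.1.

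The tandem pairs differed alike along the chromosome, in that the general limb gene was the more marked of each. Tbx2 reached 39.6 and Tbx4 19.5, and Tbx3 reached 39.1 and Tbx5 22.2. In domain width the pairs stood at 15807 against 2608 bp and 8170 against 1332 bp. The same order held in both pools for height and width. Between the genes as annotated in GENCODE, the 44473 bp from Tbx2 to Tbx4 held 2 whole peaks (38.0 and 16.4). The 147943 bp from Tbx3 to Tbx5 held 3 (5.11 to 25.5), the last of them the upstream peak of Tbx5.

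**Figure D5:**
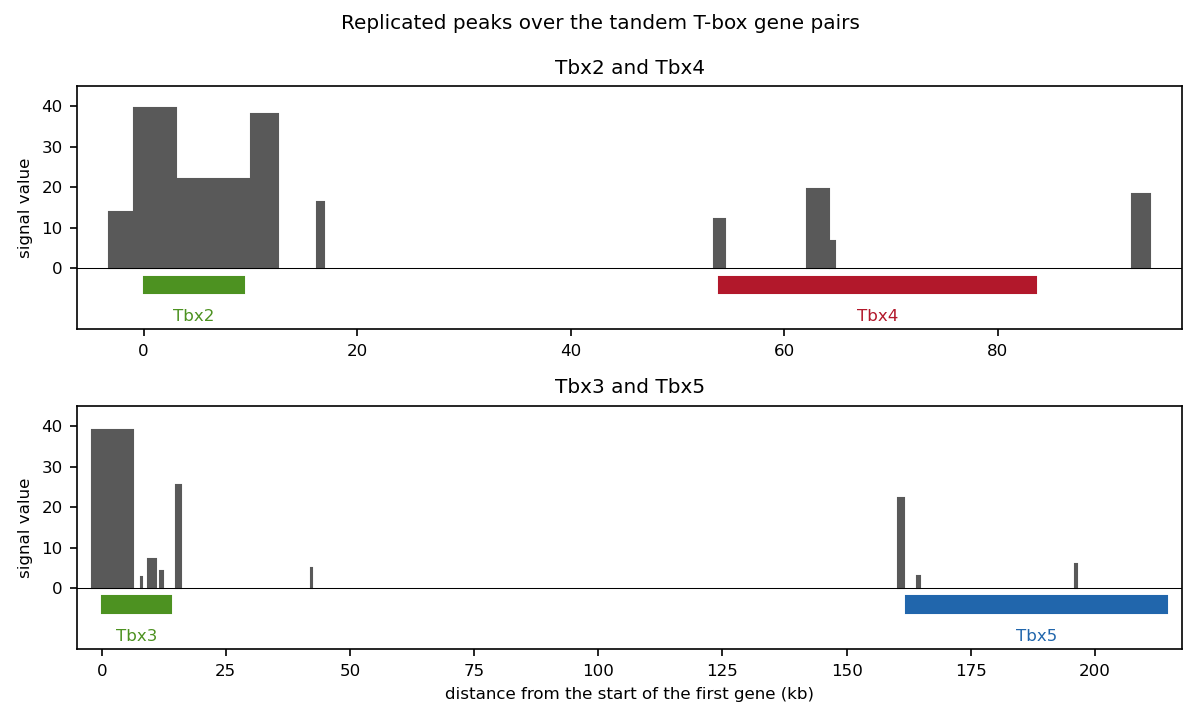
Replicated peaks along the tandem pairs Tbx2 and Tbx4 (top) and Tbx3 and Tbx5 (bottom), with the signal value on the y axis and the distance from the start of the first gene in kb on the x axis. The first gene of each pair carries the higher and wider block of peaks, and the long interval between Tbx3 and Tbx5 is almost free of them.

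The order of the hindlimb and forelimb genes by highest signal value depended on a shared peak. The values of Pitx1 (24.5) and Tbx4 (19.5) stood on either side of that of Tbx5 (22.2) in the replicated list, and in pool E Tbx5 was above both. The 22.2 came from the peak shared with Gm43050, and the other replicated peaks of Tbx5 had 3.08 and 5.93, below the highest peaks of Pitx1 and Tbx4. Tbx5 also stood apart in position and extent, with no GENCODE TSS covered and 2.14% of its body under peaks against 52.2% at Pitx1 and 10.4% at Tbx4. Of the Hox genes that differ along the body axis, the posterior Hoxc9, Hoxc10 and Hoxc11 had signal values of 45.9, 55.3 and 47.8. They shared a domain of 31600 bp with the more anterior Hoxc5. Hoxc5 and Hoxc10 had the same values in each list (55.3 replicated, 60.6 in pool E and 50.9 in pool F). Their heights can therefore not be taken as separate. Hoxc4 had 15.3 in the replicated list, 27.3 in pool E and 22.0 in pool F.

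Of the 11 other T-box genes, 8 were marked in the replicated list, a share close to the 69.3% of all protein-coding genes. Their median signal value was 23.5, led by Mga (38.6), Tbx6 (31.3), Tbx1 (28.5) and Eomes (24.9), while T, Tbx10 and Tbx19 were unmarked. In the replicated list Tbx2, Tbx3, Tbx15 and Tbx18 were above all 8, and Tbx4 and Tbx5 below their median. In pool E Tbx6 (55.8) and Mga (44.9) were above Tbx2, Tbx3 and Tbx18, and in pool F Tbx5 (20.4) was above the median of the 8 (19.9). Lbx2, the paralog of Lbx1, had 31.2, below Lbx1. These lists are small and were compared by their values alone.

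Of 23 genes that pattern the embryonic limb bud, 22 were marked, a share close to that of all genes in the high and intermediate CpG classes, to which all but 1 of them belong. Their median signal value was 28.1, against 45.2 over all marked genes, with En1 (49.8) and Msx1 (48.7) among the higher values, and Shh, the signal of the posterior limb bud, was unmarked in all 4 lists. Of 10 genes listed for migrating limb muscle precursors, in which Lbx1 acts, 9 were marked, where 69.3% of all protein-coding genes were. All but Meox2 and Tcf21 were of the high or intermediate CpG class, of which 99.3% and 93.9% were marked. The median of those marked was 47.3, near the 49.2 of Lbx1. Gab1 (54.7), Six4 (51.8) and Meox2 (48.2) were among the higher values. Tcf21 was the unmarked one of this list, and whether each listed gene acts in these precursors was not tested.

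The tissue label was met by its markers: all 8 myofibre genes were marked, each with a domain of at least 5000 bp. The shares over all protein-coding genes were 69.3% and 8.56%. The median signal value of the 8 was 49.1, but single values ranged from 9.83 to 58.8. Markers of other cells of muscle were present too: connective tissue 7 of 7, satellite cells 4 of 4, pericytes 5 of 5. Endothelium and tendon had 4 of 4 each and Schwann cells 3 of 4. The median values of these lists were 24.4 to 38.4. Some markers were weak, with 3.67 for Tnmd of tendon, 6.69 for Sox10 of Schwann cells and 8.50 for Calcr of satellite cells. Sox10 had no peak over a TSS, and being marked is common, at 69.3% of all protein-coding genes. The 4 hepatocyte and the 4 heart muscle markers (Myh6, Myl7, Nkx2-5 and Nppa) had no peak within 1000 bp of a TSS, and of 4 lymphocyte markers Cd2 alone had one, at 3.08. In which of these cells the 9 genes carried the mark was not tested.

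The pools agreed on most peaks of the 9 genes. Of 28 pool E peaks, 26 (92.9%) were overlapped by a pool F peak, where 82.5% of the whole list were, and the 2 others were at Tbx3. Of 34 pool F peaks, 32 (94.1%) were overlapped in pool E, where 93.8% of the whole list were, and the 2 others were at Tbx15. Signal values were higher in pool E at 6 of the 9 genes, as at 90.6% of all genes marked in both pools. The exceptions were Pitx1, Tbx4 and Tbx18. Ranked among the marked genes of each pool, Tbx4 exceeded 8.64% in pool E and 13.9% in pool F, Pitx1 15.6% and 21.1%, and Tbx18 29.0% and 42.7%.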

How the data were processed

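Per the labels, H3K4me3 ChIP-seq of 4 libraries in 2 pools was deposited as peak lists on mm10: pool E, pool F and pooled lists of pseudoreplicated peaks and a replicated list of both pools. Both technical libraries of a pool share 1 alignment, so no value per library exists, and the depth is unknown. Aligner, peak caller and settings are not given in the sources used here, and a further input is named without a description. The deposited signal value of each peak is the authors' own, and its reference is not stated. The deposited −log10 q-value was used for a filter only (at least 2), and the deposited summit offset for the sequence windows.

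TSSs came from all transcripts of GENCODE M21, sequence from GRCm38.p6. A gene was marked with a peak within 1000 bp of a TSS, and peaks up to 1000 bp apart were joined. High CpG class needed a ratio of at least 0.75 and 55% GC in a window, and low class a ratio under 0.48 in all. Scripts (Python 3.11.15, numpy 2.4.6, pandas 2.3.3) were tested on simulated data. No test was run. All 9 genes are named, and of each of the 16 lists at most the 4 marked genes of highest signal value and 4 unmarked ones by alphabet. A few of these list genes are not reported here. The genes and lists were chosen with earlier results of these data known. Alternatives were other windows, joining distances, annotations, lists and the q filter.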

Additional observations from a re-analysis of the deposited data

How the results depend on the processing

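All 9 genes stayed marked with a window of 2500 bp, with protein-coding transcripts, with RefSeq TSSs, with the q filter and in each list, and 8 did with a window of 0 bp, where Tbx5 was lost and Tbx4 fell to a signal value of 12.1. The median domain width of 6364 bp depended on joining: it was 2576 bp without joining and 7960 bp with peaks up to 2500 bp apart joined, and 6296 to 6365 bp with 1 pool left out. Genes with a domain of at least 5000 bp were 5, against 3 without joining, where Pitx1 and Tbx2 dropped out, and 6 with the longer joining, where Pitx3 was added, and 5 with either pool left out. The median signal value of 39.6 was 39.8 to 43.4 with 1 pool left out. Without pool F, Tbx4 had 12.9 in place of 19.5, and Tbx5 had 1.17% of its body under peaks, or 1.00% without pool E, in place of 2.14%. Counted from the side of each pool's list, 58 peaks were shared at an overlap of 1 bp. These were 26 of 28 in pool E and 32 of 34 in pool F. At a reciprocal overlap of 50% they were 46, with 23 in each pool. No share of the whole lists at 50% stands beside these counts, so the fall cannot be called particular to these genes. No paired analysis was possible because no test was run and no value per library exists. Depth could not be assessed, so a missing peak does not show that the mark was absent.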

Other observations

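Around the 9 genes, 22 further replicated peaks lay within 50 kb, of which 8 were within 1000 bp of a GENCODE TSS. The other 14 were more than 1000 bp from any TSS of GENCODE or RefSeq, with signal values of 3.08 to 38.0, and 11 of them were overlapped in both pools. The strongest lay past the 3′ ends of the T-box genes described above. Downstream of Lbx1 were peaks at chr19:45207944-45208813 (17.5) and chr19:45220752-45221623 (14.6), and upstream of Tbx15 a peak at chr3:99233565-99234600 (9.55). Upstream of Pitx3, the promoter of Gbf1, a gene of Golgi traffic, had peaks with 22.6 and 38.8, so that Pitx3 at 54.2 stood above its neighbour. At Tbx18 the nearest outside peak was at 9.45, by a TSS of Gm37374.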
